A study of Mus musculus with 23 samples.

Results

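The difference between the male and the female response to corticosterone was measured gene by gene in quadriceps, a thigh muscle of mostly fast fibers in mice. It is the interaction of sex and treatment, the log2 fold change (log2FC) of corticosterone against vehicle in males minus the same log2FC in females. Its members are the autosomal genes, on mouse chromosomes 1 to 19, that passed the filter of the study, 12613 of 51201 autosomal gene IDs and of 55573 gene IDs in the table. They were chosen by chromosome and level, without a test of a difference between groups. The filter can be met by the level in any group alone, so that a gene near silent in the other groups can enter. The choice of the members was made with earlier results of these data known. Below, a gene is called at an adjusted p (edgeR's quasi-likelihood test, adjusted by Benjamini-Hochberg over all 13049 genes tested) under 0.01, or under 0.05 where that is said. A rise or a fall was called in a sex where the adjusted p of its log2FC there was under 0.01. An interaction above 0 means a higher log2FC in males, either because a gene rose more there or because it fell less.

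C57Bl6 mice of 8 to 10 weeks carried a slow-release pellet under the skin for 14 days, and all were fasted for 5 h before the muscle was taken. The pellet held 50 mg corticosterone and 50 mg cholesterol in 5 females (Female_CORT) and 6 males (Male_CORT), or 100 mg cholesterol alone in 6 females (Female_VEH) and 6 males (Male_VEH). Each of the 23 libraries is named by the letter of its sex and the number of its mouse. Whether the sexes were handled in 1 batch is not stated, so that in a direct comparison of males with females a batch and the sex cannot be told apart. Both responses that enter the interaction were taken within a sex.

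Corticosterone is the glucocorticoid hormone that the mouse adrenal releases. It binds the glucocorticoid receptor (GR, gene Nr3c1), a transcription factor that enters the nucleus with its ligand and binds glucocorticoid response elements. In skeletal muscle glucocorticoids are known for raising ubiquitin ligases and FoxO factors that promote protein breakdown, for restraining mTORC1, the kinase complex that drives protein synthesis, and for lowering collagen and inflammatory genes.

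Gene counts ranged from 20904150 to 21984477 per mouse, and Xist against 4 Y-linked genes fitted the labelled sex in 23 of 23 mice. Skeletal muscle markers were high in every group, the fast myosin Myh4 lying between 13225 and 57821 CPM (counts per gene scaled to the size of the library). Levels of other cell types varied among the mice. The mean log2 CPM of 22 adipocyte markers was 7.21 in F2, 8.01 in F6 and 7.20 in F10, against 5.61 in F4 and 3.04 in F8 and 2.88 to 5.93 in Female_VEH, 2.28 to 5.31 in Male_VEH and 3.42 to 5.55 in Male_CORT. Their summed level was 1879 to 14304 CPM in Female_CORT and 2094 to 3108 CPM in Male_CORT. In Female_VEH it was 1663 to 9337 CPM and in Male_VEH 1106 to 5369 CPM, so that the sums overlapped among the groups. Of the 22 markers, 1 had no read in at least 1 mouse. Adipoq, the adipocyte hormone adiponectin, stood at 366, 126, 626, 5.95 and 368 CPM in the corticosterone-treated females F2, F4, F6, F8 and F10, the order kept below. In bulk muscle more cells of a type and more RNA per cell cannot be told apart, and the part of fat in the results below was not tested. Counts are therefore also given from a fit with the adipocyte score as a covariate, and from a fit without F2, F6 and F10, which leaves 2 corticosterone-treated females.

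**Figure D1:**
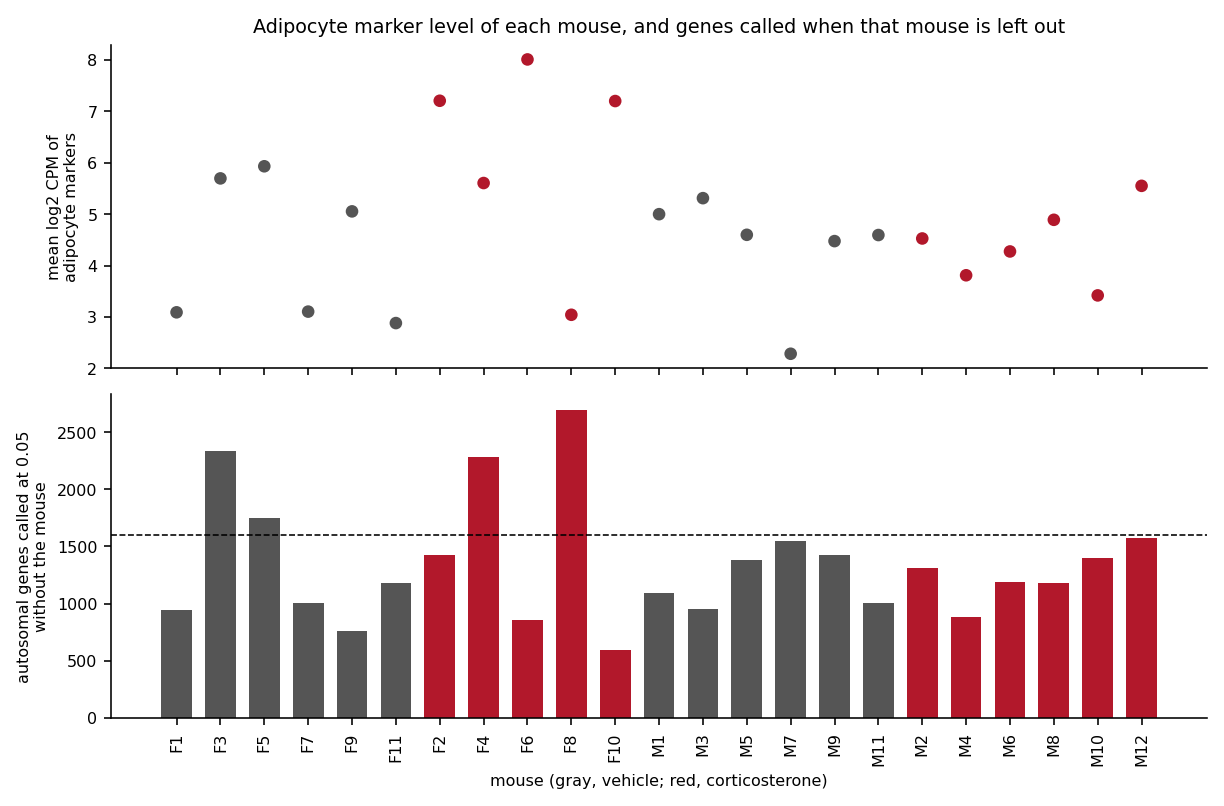
Mean log2 CPM of 22 adipocyte markers in each mouse (upper) and the number of autosomal genes with an interaction at an adjusted p under 0.05 when that mouse is left out (lower), with the dashed line at the 1600 genes of all mice. The 3 highest scores are F6, F2 and F10, and the count runs from 592 without F10 to 2697 without F8.

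Of the 12613 autosomal genes, 90 differed in their response by sex at an adjusted p under 0.01 (0.714%), 48 with a higher response in males (0.381%) and 42 with a lower one (0.333%). At an adjusted p under 0.05 they were 1600 (12.7%), 659 higher (5.22%) and 941 lower (7.46%), the shares against which the counts of gene lists are given here. Each sex has its own response beside this: at 0.01, 13.3% of the genes rose and 13.1% fell in males, and 7.37% rose and 6.05% fell in females. The median interaction over all autosomal genes was -0.05. Of the 90 genes, 72 had the larger change in males in size. The most common patterns were a rise called in males and not in females, with 38 genes, and a fall called in males and not in females, with 27. In 11 genes the rise was called in females alone and in 4 the fall was. Both sexes passed in opposite directions in 3 genes, and both in the same direction in 7.

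The log2FC differed in sign between the sexes in 52 of the 90 genes. The median log2FC of the 48 genes with a higher response was 0.80 in males and -0.01 in females, and that of the 42 genes with a lower one was -0.64 in males and 0.31 in females. CPM of the treated males lay wholly above those of the vehicle-treated males in 42 of the 48 genes and wholly below in 31 of the 42, where 22% of all autosomal genes have ranges that do not overlap. In females the ranges parted in 7 of the 48 and 7 of the 42, beside 7.78% of all genes. Between the treated groups, males lay wholly above females in 40 of the 48 and wholly below in 34 of the 42, beside 12.4%. These values describe genes chosen by the same test. With the adipocyte score in the model 1 of the 12613 genes passed 0.01 and 234 passed 0.05. Without F2, F6 and F10 the counts were 6 and 62, beside 90 and 1600 in the main fit. Fewer genes of any kind pass in these fits, so that the smaller counts of the gene lists below are not particular to a list by themselves. All 90 genes kept their direction in both fits. With the adipocyte score 90 of them stayed under 0.05, and without F2, F6 and F10 27 did. Leaving out 1 mouse at a time, between 1 gene (without M3) and 862 genes (without F8) passed 0.01 and between 592 (without F10) and 2697 (without F8) passed 0.05, and the 90 genes stayed under 0.05 in each of these 23 fits.

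**Figure D2:**
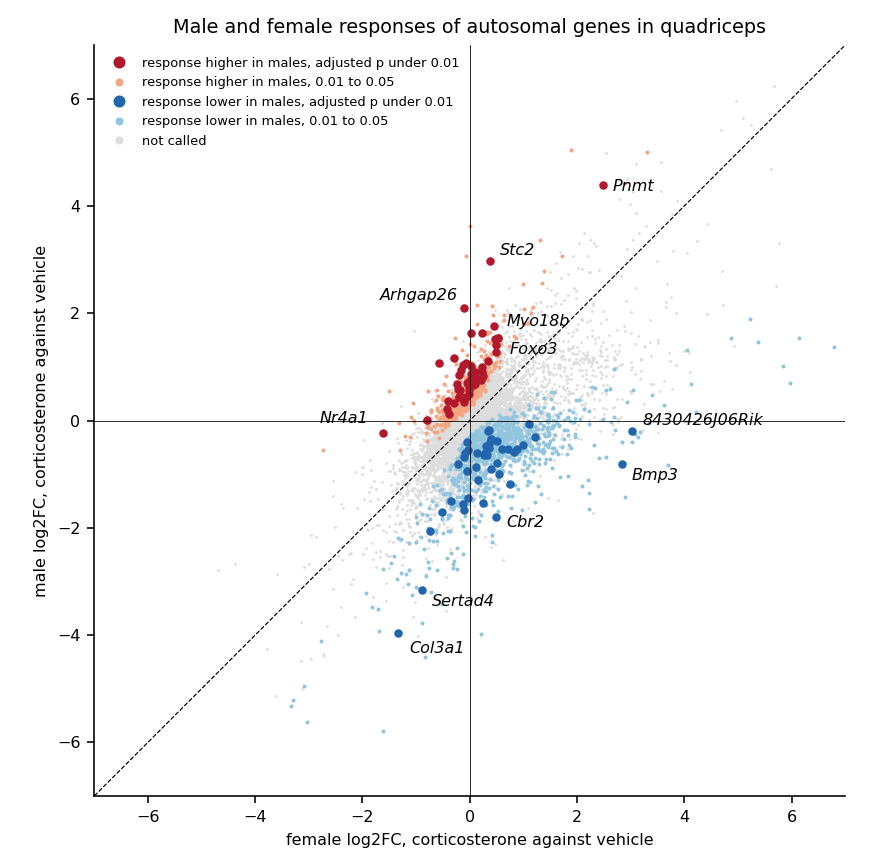
Female log2FC (horizontal) against male log2FC (vertical) of corticosterone against vehicle for the autosomal genes, with Glra3 outside the axes and the dashed line where both are equal. Genes above the line respond higher in males, those below lower, and of the 90 genes at an adjusted p under 0.01 the 38 that rose in males alone and the 27 that fell in males alone are the largest groups.

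Among the 48 genes with a higher response in males at an adjusted p under 0.01, the largest difference was that of Stc2 (chr11:31357307-31370074, GRCm38), the secreted glycoprotein stanniocalcin 2. It stood at 1.38, 2.09 and 3.10 CPM (lowest, median and highest) in vehicle-treated males and at 13.1, 15.1 and 26.1 CPM in treated males. The vehicle-treated females had 4.20, 7.87 and 9.41 CPM and the treated females 11, 4.0, 19.1, 6.74 and 5.96. The male groups were apart and the female groups overlapped, F6 alone reaching the range of the treated males. The log2FC was 2.97 in males and 0.37 in females, an interaction of 2.60 (SE 0.44, adjusted p = 0.00607). Arhgap26, a GTPase-activating protein for RhoA, likewise rose in males, from 3.95, 4.68 and 7.95 CPM in Male_VEH to 18.7, 21.9 and 25.6 in Male_CORT. The treated females at 11.7, 7.71, 14.4, 7.09 and 9.34 CPM lay within the 6.97 to 21.7 CPM of their controls, and the interaction was 2.20 (adjusted p = 0.00475). Pnmt, which makes adrenaline from noradrenaline and is a classical glucocorticoid-induced gene of the adrenal, rose in both sexes and further in males. It was 0.153 to 0.846 CPM in Male_VEH and 8.73 to 16.7 in Male_CORT, and 0.520 to 1.27 in Female_VEH against 6.59, 4.14, 4.16, 5.22 and 3.89 in Female_CORT, with treated males wholly above treated females (interaction 1.90, adjusted p = 0.00830).

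The gene with the lowest adjusted p was Arid5a (chr1:36307733-36324029), which codes for an RNA-binding protein that stabilizes inflammatory transcripts. It was at 2.87, 3.55 and 4.71 CPM in Male_VEH and 6.25, 8.04 and 9.92 in Male_CORT, with no overlap. In females it was 5.42, 6.77 and 7.34 CPM with vehicle and 5.09, 4.91, 5.66, 4.87 and 6.76 with corticosterone, with no treated female above the median of the controls. The interaction was 1.45 (SE 0.19, adjusted p = 0.00143), and it stayed under 0.01 with the adipocyte score (0.00236) and without F2, F6 and F10 (0.00406). Without those 3 females Stc2 (adjusted p = 0.00238), Arhgap26 (0.00932) and Snhg14 (0.00645) also passed 0.01. Snhg14, a noncoding host RNA of small nucleolar RNAs, went the other way. It was 1.37, 1.46 and 1.80 CPM in Female_VEH and 3.14, 3.90, 1.86, 3.59 and 4.97 in Female_CORT, with no overlap, and 1.36, 1.64 and 2.21 in Male_VEH and 0.940, 1.42 and 1.62 in Male_CORT, for an interaction of -1.51 (SE 0.27, adjusted p = 0.00642).

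Foxo3 (chr10:42181841-42276755), a FoxO factor that drives genes of protein breakdown and autophagy, was 22.1, 25 and 26.3 CPM in vehicle-treated males and 56.6, 72.3 and 88.0 in treated males. Female_VEH had 31.1, 35.2 and 48.5 CPM and Female_CORT 62.6, 49.8, 64.3, 48.2 and 42.9. Both sexes rose, 1.54 in males and 0.52 in females on the log2 scale, and the interaction was 1.02 (SE 0.18, adjusted p = 0.00607). The female ranges overlapped where the male ranges did not. Foxo1, its relative, rose in both sexes as well, with log2FC of 2.66 and 1.70. Its interaction of 0.96 had an adjusted p of 0.0506, and F4 at 20.8 CPM lay within the 17.0 to 23.5 CPM of the vehicle-treated females. Of 16 FoxO and Kruppel-like factors 3 were called higher at 0.05 and 0 lower (18.8%, beside 5.22% of all genes called higher). The interaction was above 0 in 8 of the 16 and below 0 in 8. The number called higher was 1 with the adipocyte score in the model and 2 without F2, F6 and F10.

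Trim63 (chr4:134315120-134329629) codes for MuRF1, the ubiquitin ligase of the sarcomere that serves as a marker of atrophy. It was 362, 435 and 495 CPM in Male_VEH and 888, 1785 and 2275 in Male_CORT, and 261, 373 and 729 CPM in Female_VEH against 1062, 569, 641, 381 and 248 in Female_CORT. Treated males lay wholly above their controls. Of the treated females only F2 exceeded all vehicle-treated females. The interaction of 1.54 (SE 0.43) had an adjusted p of 0.0280, which became 0.0689 with the adipocyte score and 0.0644 without F2, F6 and F10. Fbxo32, the gene of the other classical atrophy ligase atrogin-1, was 1271 to 2624 CPM in treated males and 1077, 1078, 899, 378 and 317 CPM in treated females. F2, F4 and F6 lay above all vehicle-treated females at 209 to 712 CPM, and F8 and F10 did not. Its interaction of 0.83 was not called (SE 0.47, adjusted p = 0.231). Fbxo31, another F-box protein of such ligases, passed at 0.01. Treated males at 235 to 319.9 CPM lay above all other mice, and treated females at 126 to 189.7 CPM overlapped with the 129 to 210.5 of their controls (interaction 0.99, adjusted p = 0.00607). Of 27 ubiquitin ligases and related genes of muscle, 3 had a higher response in males at 0.05 and 0 a lower one. This share of 11.1% stands beside 5.22% of all genes called higher and 12.7% called either way. The number called higher was 1 with the adipocyte score in the model and 1 without F2, F6 and F10.

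The promoters of Trim63 and Sgk1 are shown because both hold a full palindromic glucocorticoid response element close to the start. The bases before the start are from RefSeq on GRCm38.p6, written 5′ to 3′ on the strand of the gene, and capitals mark the match to GNACANNNTGTNC on either strand.
Trim63 (chr4:134314870-134315119, plus strand): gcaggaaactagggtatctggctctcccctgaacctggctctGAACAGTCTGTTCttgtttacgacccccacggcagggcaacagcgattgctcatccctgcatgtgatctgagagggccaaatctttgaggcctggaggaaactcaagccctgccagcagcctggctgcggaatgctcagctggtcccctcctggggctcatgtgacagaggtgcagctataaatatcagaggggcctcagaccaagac
Sgk1 (chr10:21993640-21993889, plus strand): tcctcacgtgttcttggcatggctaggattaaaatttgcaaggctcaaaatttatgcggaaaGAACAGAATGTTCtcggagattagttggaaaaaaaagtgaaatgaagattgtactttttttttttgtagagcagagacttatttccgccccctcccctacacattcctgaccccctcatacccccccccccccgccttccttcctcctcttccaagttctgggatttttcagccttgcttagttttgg
The match begins at position -208 from the start of Trim63 and at -188 from that of Sgk1. Sgk1 is a kinase and a classical GR target. It was 84.3, 131 and 249 CPM in Male_VEH, 392, 437 and 564 in Male_CORT, 58.8, 131 and 214 in Female_VEH and 338, 68.8, 224, 357 and 209.8 in Female_CORT, with an interaction of 0.70 (SE 0.49, adjusted p = 0.328). The motif was found in the window from 250 bases before to 50 after a start in 3 of 28 GR target genes with a promoter in the table, in 1 of 38 genes with a higher response at 0.01, in 0 of 33 with a lower one and in 0.471% of 9560 tested autosomal genes. The gene among those with a higher response is Sptb, where the match spans the start.

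Some further GR targets were called for the interaction and others were not. Fkbp5, the chaperone partner of the receptor that is among its most responsive targets, was 22.7, 31.4 and 58.8 CPM in Male_VEH and 293, 366 and 422 in Male_CORT, and 12.5, 24.8 and 48.4 in Female_VEH and 278, 207, 269.9, 201 and 149 in Female_CORT. Every treated mouse lay above every vehicle-treated mouse of its sex, and the log2FC of 3.36 and 3.05 left an interaction of 0.31 (SE 0.40, adjusted p = 0.618). The metal-binding metallothioneins Mt1 and Mt2 rose in both sexes too, Mt2 by 4.10 in males and 3.86 in females on the log2 scale, with interactions of -0.12 and 0.24, adjusted p = 0.875 and 0.764. Klf15, a Kruppel-like factor that GR induces and that raises amino acid breakdown, was 27.7, 38.3 and 43.9 CPM in Male_VEH and 62.7, 86.3 and 99.2 in Male_CORT, and 44.5, 56.4 and 64.8 in Female_VEH against 78.4, 49.1, 75.8, 78.4 and 64.9 in Female_CORT. Its interaction was 0.84 (adjusted p = 0.0160). Cdkn1a, the cell cycle inhibitor p21, rose 21.6-fold in males and 7.43-fold in females, an interaction of 1.54 (adjusted p = 0.0114). The treated groups of Cdkn1a overlapped, at 192 to 329 CPM in males and 120.0 to 245 CPM in females, and vehicle-treated males at 9.46 to 14 CPM lay wholly below vehicle-treated females at 14.6 to 41.1 CPM.

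Per1, a clock gene with direct GR control, reached 67.4 to 80.0 CPM in treated males from 9.66 to 42.9. Treated females had 51.9, 18.6, 71.3, 49.0 and 40.5 CPM beside 24.3 to 48.5 in their controls, and the interaction of 1.11 had an adjusted p of 0.0891. At 0.05, 21.2% of the 33 GR target genes tested were called, beside 12.7% of all genes. Of the 33, 6 had a higher response in males (Sesn1, Foxo3, Cdkn1a, Klf15, Trim63 and Klf9) and 1 a lower one. The latter was Angptl4, an inhibitor of lipoprotein lipase, which was 4.76 to 30.8 CPM in Female_VEH and 115, 89.9, 168, 46.0 and 138 in Female_CORT, and 18.1 to 36.0 and 21.8 to 46.0 CPM in vehicle-treated and treated males. The median log2FC of the list was 1.54 in males and 0.96 in females, and its median interaction 0.52, beside -0.05 over all genes. The number with a higher response was 3 with the adipocyte score in the model and 3 without F2, F6 and F10, with a median interaction of 0.45 with the adipocyte score and 0.68 without these 3 females. The receptor itself did not rise in either sex: Nr3c1 was 68.5 to 107 CPM in Male_VEH, 70.0 to 86.1 in Male_CORT, 71.5 to 124 in Female_VEH and 64.8, 81.2, 71.9, 54.2 and 63.9 in Female_CORT. It fell by 0.54 on the log2 scale in females, and its interaction of 0.47 was not called (adjusted p = 0.0786).

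Sestrin 1, an inhibitor of mTORC1 that FoxO and p53 induce, was called at 0.01. Sesn1 (chr10:41809935-41908424) was 26.6, 31.5 and 34.1 CPM in vehicle-treated males and 73.1, 88.3 and 131 in treated males, which lay above all treated females. Female_VEH had 41.6, 55.3 and 89.9 CPM and Female_CORT 63.7, 67.0, 60.7, 54.2 and 51.3, with full overlap, for an interaction of 1.61 (SE 0.25, adjusted p = 0.00385). Tsc2, which restrains mTORC1 through Rheb, was 112 to 142 CPM in treated males, above every other mouse, and 69.9 to 94.8 in treated females (interaction 0.53, adjusted p = 0.0118). At 0.05 they were called with 3 translation factors. That is 5 of 38 mTORC1 and translation genes with a higher response and 0 with a lower one. This share of 13.2% stands beside 5.22% of all genes called higher and 12.7% called either way. The number was 3 with the adipocyte score in the model and 2 without F2, F6 and F10. Gadd45a, a growth arrest gene that is raised in muscle atrophy, was 16.0, 20.8 and 25.9 CPM in Male_VEH and 27.5, 41.7 and 61.3 in Male_CORT. In females it stood at 30.7, 43.6 and 70.1 CPM with vehicle and 29.4, 48.2, 32.7, 26.1 and 21.9 with corticosterone. The interaction was 1.64 (SE 0.32, adjusted p = 0.00830), and the treated males overlapped with both female groups.

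Tfeb, the master regulator of lysosome genes, was 64.5 to 86.7 CPM in Male_VEH, 113 to 187 in Male_CORT, 63.7 to 121 in Female_VEH and 93.5, 72.0, 73.5, 97.6 and 56.8 in Female_CORT, so that treated males lay above all treated females. Its interaction was 1.17 (adjusted p = 0.00806). Map1lc3b, the autophagosome protein LC3B, followed with 0.62 (adjusted p = 0.0167). Of 46 autophagy and lysosome genes 34.8% were called at 0.05, beside 12.7% of all genes. The list split, 7 with a higher and 9 with a lower response in males. With the adipocyte score 1 and 1 of them were called, and without F2, F6 and F10 0 and 0. The lower ones named here are cathepsins: Ctsz rose in females (0.72), with -0.53 in males, an interaction of -1.26 (adjusted p = 0.00781), and Ctsk, an enzyme that digests collagen, fell in both sexes and further in males (-1.61, adjusted p = 0.0149). Tbc1d4, the Akt substrate that holds back the glucose transporter GLUT4, was 32.0 to 56.3 CPM in Male_VEH and 103 to 160.3 in Male_CORT, and 46.8 to 86.3 in Female_VEH and 105, 90.5, 87.0, 88.6 and 87.2 in Female_CORT (interaction 1.06, adjusted p = 0.00952). Every treated mouse lay above the controls of its sex. Acvr1b, a receptor for activin and myostatin signals, and Smad4, the shared partner of the receptor-driven Smads, rose in males with interactions of 1.06 (adjusted p = 0.0295) and 0.59 (adjusted p = 0.00830).

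**Figure D3:**
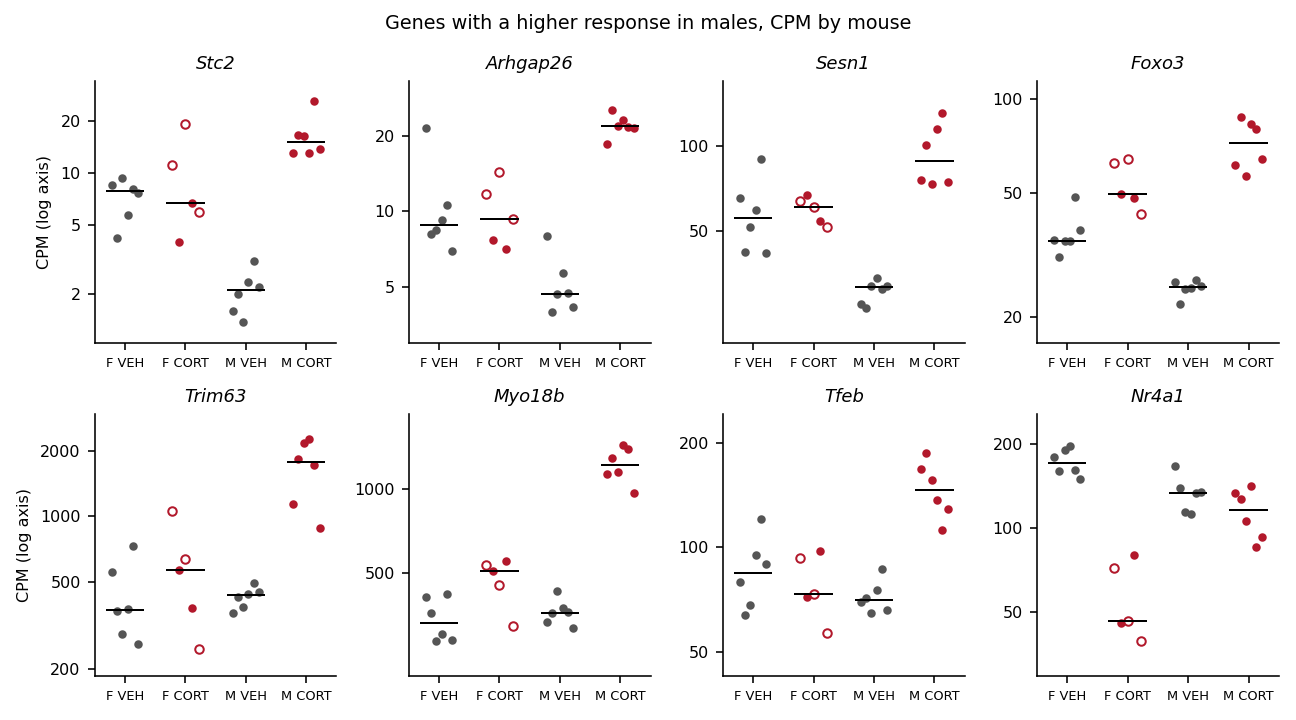
CPM of 8 genes with a higher response in males in each of the 23 mice on a log axis, with gray points for vehicle, red points for corticosterone, open points for F2, F6 and F10 and bars at group medians. In Myo18b all treated males lie above all other mice, in Tfeb they lie above all but vehicle-treated females, and in Nr4a1 the treated females lie below all other mice.

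Myo18b, a myosin needed to assemble sarcomeres, was 316, 359 and 429 CPM in Male_VEH, 965, 1219.5 and 1431 in Male_CORT, 284, 331 and 419 in Female_VEH and 535, 507, 452, 550.1 and 321 in Female_CORT. All treated males exceeded all other mice, and the interaction was 1.3 (SE 0.20, adjusted p = 0.00385). Sptb, the beta-spectrin of the muscle membrane skeleton, was 411 to 567 CPM in treated males and 142 to 264 in treated females, with 189 to 245 and 195 to 292 in their controls (1.14, adjusted p = 0.00567). Cdh15, the adhesion molecule M-cadherin, and Pm20d2, a peptidase, rose in males and not in females, with interactions of 1.11 and 1.40 and adjusted p of 0.00806 and 0.00988. Of 20 fast fiber contractile genes 2 were called higher at 0.05 and 0 lower. This share of 10% stands beside 5.22% of all genes called higher and 12.7% called either way. Actn3, the Z-disc protein of fast fibers, was 6635 to 10409.5 CPM in Male_VEH and 18842 to 34009 in Male_CORT, and treated females had 16657, 12731, 12899, 13294 and 5709 CPM beside 7362 to 13725 in their controls (interaction 1.28, adjusted p = 0.0174).

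Of 33 genes of calcium handling and membrane excitability, 7 had a higher response in males at 0.05 and 0 a lower one. That is 21.2%, beside 5.22% of all genes called higher. Among them were Ryr1, the calcium release channel (0.85, adjusted p = 0.0246), and Cacnb1, a subunit of the voltage sensor (0.77, adjusted p = 0.0140). The median log2FC of the 33 genes was -0.069 in males and -0.31 in females, and 9 had fallen in females at 0.01 against 2 in males. The number with a higher response was 1 with the adipocyte score in the model and 0 without F2, F6 and F10. Among the treated females F10 had the lowest Myh4 and Actn3. Of the myosin heavy chains, Myh4, of the fastest fibers, had an interaction of 0.54 (adjusted p = 0.336) and Myh7, of slow fibers, -0.63 with an SE of 2.69 (adjusted p = 0.888), so that a large difference in Myh7 was not detectable. No gene of 19 slow fiber genes was called by edgeR, DESeq2 or limma-voom at 0.05, and 0 had an unadjusted p under 0.05. Their levels varied widely among mice, the mean log2 CPM running from 0.980 to 7.77 in vehicle-treated males.

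At 0.05, 4 clock genes of 21 were called, all higher, where 12.7% of all genes tested were called in either direction. The number was 1 with the adipocyte score in the model and 0 without F2, F6 and F10. Among them were Cry2, a repressor of the clock, with 0.87 (adjusted p = 0.0181), and Rora, a nuclear receptor, with 0.93 (adjusted p = 0.0231). In Cry2 and Rora treated males lay above all treated females, at 56.8 to 106 against 31.2 to 53.2 CPM and 123 to 202 against 54.3 to 118 CPM. Of 21 immediate early genes 3 were called higher and 0 lower, 14.3% beside 5.22% of all genes called higher and 12.7% called either way. The number was 3 with the adipocyte score in the model and 1 without F2, F6 and F10. Jun, an immediate early transcription factor, was 44.1 to 91.2 CPM in Male_VEH and 135 to 183 in Male_CORT, and 103, 83.6, 88.9, 91.8 and 85.7 CPM in treated females beside 63.0 to 89.9 in controls (interaction 0.79, adjusted p = 0.0176). Nr4a1, a nuclear receptor induced by activity and exercise, is another. It was 150, 171 and 198 CPM in Female_VEH and 72.0, 45.8, 46.6, 80.4 and 39.5 in Female_CORT, with no overlap, and 113, 134 and 168 in Male_VEH and 85.7, 117 and 142 in Male_CORT, which overlapped. The log2FC was -1.61 in females and -0.22 in males, an interaction of 1.39 (SE 0.24, adjusted p = 0.00607).

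Among genes of the extracellular matrix, Col3a1 (chr1:45311538-45349706), the chain of type III collagen, had a lower response in males. It was 256, 308 and 385 CPM in vehicle-treated males and 10.3, 21.8 and 31.6 in treated males. Females had 220.5, 307 and 714 CPM with vehicle and 116, 186, 190.0, 33.3 and 193 with corticosterone. Both sexes fell without overlap, 15.5-fold in males and 2.54-fold in females, and treated males lay below all treated females, the nearest of which was F8. The interaction was -2.61 (SE 0.49, adjusted p = 0.00781). The chains of type I collagen, Col1a1 and Col1a2, fell in males, with log2FC of -3.26 and -3.04 in males and -1.08 and -1.15 in females (interactions -2.18 and -1.89, adjusted p = 0.0139 and 0.0169). Col6a1 and Col6a2, of the collagen VI network around fibers, had interactions of -1.32 and -1.27, adjusted p = 0.00988 and 0.0107.

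Genes that fold and modify collagen were called as well. Serpinh1 (chr7:99345376-99353239), the collagen chaperone HSP47, was 87.2, 118 and 143 CPM in Male_VEH and 34.2, 39.4 and 48.5 in Male_CORT with no overlap, and 71.4, 114 and 172 in Female_VEH against 174, 74.9, 179, 75.7 and 193 in Female_CORT. The females with high adipocyte scores, F2, F6 and F10, lay above all vehicle-treated females, and F4 and F8 in their lower range. The interaction was -1.78 (SE 0.33, adjusted p = 0.00781), -1.43 with the adipocyte score (adjusted p = 0.0307) and -0.87 without the 3 females (adjusted p = 0.151). Crtap, which takes part in prolyl 3-hydroxylation of collagen, gave -1.30 (adjusted p = 0.00952) with the same 3 females highest. Of 33 genes of fibrillar collagens and their modification, 16 had a lower response in males at 0.05 (48.5%, beside 7.46% of all genes) and 0 a higher one. Their median log2FC was -1.12 in males and -0.08 in females. The number called was 4 with the adipocyte score in the model and 0 without F2, F6 and F10, and the median interaction of -1.07 became -0.79 with the adipocyte score and -0.79 without these 3 females.

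Of 29 basement membrane genes 11 had a lower response in males, and of 47 small proteoglycans, matricellular proteins and proteases 14, both with none higher. These shares of 37.9% and 29.8% stand beside 7.46% of all genes called lower. The median interactions of the lists were -0.41 and -0.97. Among the latter, Vcan, the proteoglycan versican, was 3.47 to 6.36 CPM in treated males and 13.0, 10.4, 14, 6.79 and 16.7 in treated females (-1.50, adjusted p = 0.0109), and Adamts5, a protease that cleaves versican, was 13.0 to 23.8 CPM in treated males and 31.6, 26.3, 65.5, 13.3 and 36.4 in treated females (-1.95, adjusted p = 0.0135). With the adipocyte score in the model 2 and 0 members of these lists were called lower, and without F2, F6 and F10 0 and 0. Of 23 fibroblast markers 9 had a lower response in males (39.1%, beside 7.46% of all genes) and 0 a higher one. The number was 2 with the adipocyte score in the model and 0 without F2, F6 and F10. The summed level of the fibroblast markers was 1237 to 1837 CPM in treated males and 1822 to 3396 in treated females. In the controls it was 2235 to 3199 CPM in Male_VEH and 2223 to 3831 in Female_VEH. Fstl1, a secreted follistatin-like protein, had -1.47 (adjusted p = 0.0159). Pcsk5, a proprotein convertase, was 1.19 to 1.81 CPM in treated males, wholly below 2.71 to 4.28 in their controls, and 6.5, 5.44, 10, 2.46 and 8.90 CPM in treated females beside 2.49 to 5.14 (-1.92, adjusted p = 0.00772).

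The lowest interaction of all genes called at 0.01 was that of Bmp3, a secreted protein that opposes osteogenic BMP signals. It was 0.342, 1.01 and 1.46 CPM in Female_VEH and 5.55, 5.64, 13.2, 0.935 and 9.26 in Female_CORT, F8 alone staying in the control range, and 0.614, 1.58 and 3.52 in Male_VEH against 0.497, 0.858 and 2.18 in Male_CORT. The interaction was -3.65 (SE 0.73, adjusted p = 0.00895), and F8 is also the treated female with the lowest adipocyte score. Sertad4, a nuclear protein with a SERTA domain, was 2.81, 3.73 and 4.37 CPM in Male_VEH and 0.111, 0.455 and 0.593 in Male_CORT, the lowest value being under the 3 counts taken as a floor. Treated females had 1.09, 3.28, 2.55, 1.62 and 2.19 CPM and their controls 2.20 to 6.22. Its interaction of -2.26 (SE 0.41, adjusted p = 0.00744) was -2.42 without F2, F6 and F10 (adjusted p = 0.0255). Cd59b, an inhibitor of complement on the cell surface, was 5.79 to 8.70 CPM in Male_VEH and 1.15 to 3.10 in Male_CORT, with no overlap, and 5.37, 5.59, 4.81, 5.07 and 6.32 CPM in treated females beside 4.54 to 6.83 (-1.57, adjusted p = 0.00385). It stayed under 0.05 with the adipocyte score (0.0167) and without the 3 females (0.0255). Fndc10, which codes for a fibronectin type III domain protein, and Gsta4, a glutathione transferase for lipid peroxidation products, also fell in males and not in females, with -1.42 and -1.15 and adjusted p of 0.00744 and 0.00507. Cd59b has a close paralog, Cd59a, so that reads could be shared between them.

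**Figure D4:**
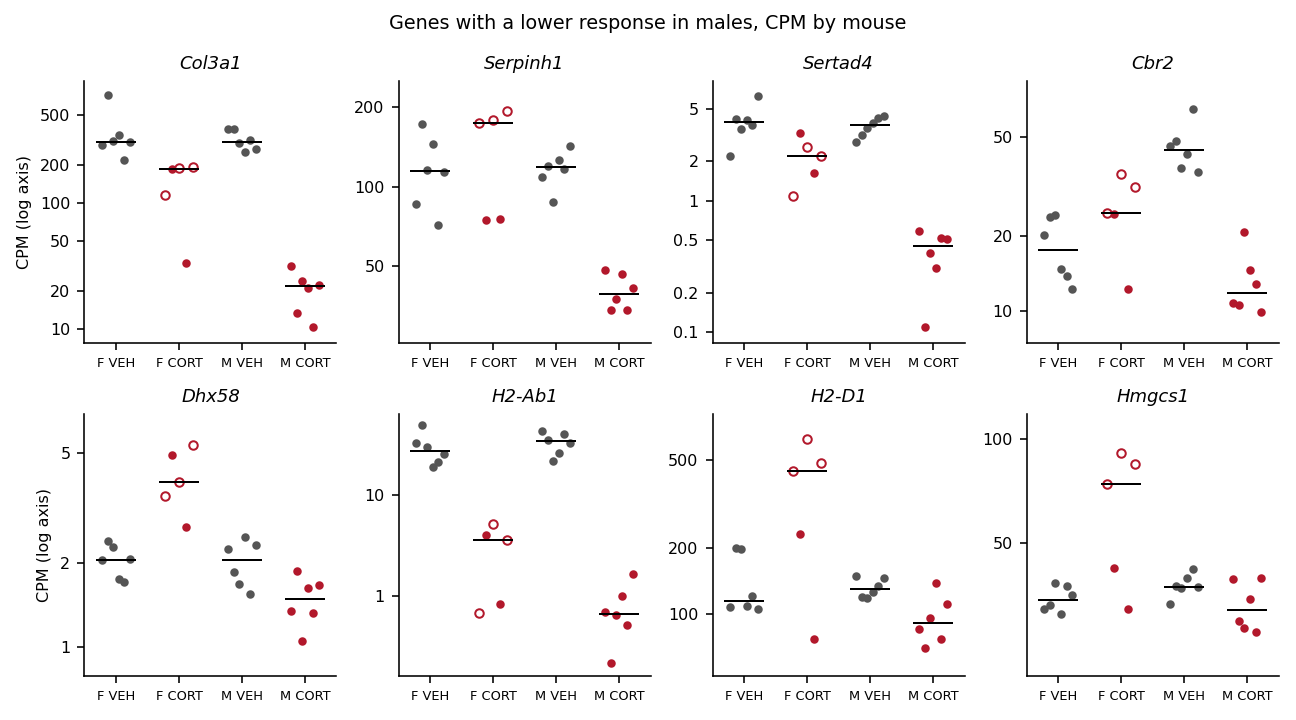
CPM of 8 genes with a lower response in males in each of the 23 mice on a log axis, with gray points for vehicle, red points for corticosterone, open points for F2, F6 and F10 and bars at group medians. In Serpinh1, H2-D1 and Hmgcs1 the open points lie highest among the treated females, whereas in Col3a1 and Dhx58 F4 lies with them.

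Antigen presentation and interferon genes were called with a lower response in males only. The genes of MHC class II, which present antigen on immune cells, are abundant in antigen-presenting cells. H2-Ab1 was 21.4, 33.5 and 42.2 CPM in Male_VEH, 0.221, 0.675 and 1.67 in Male_CORT, 18.6, 27.2 and 48.2 in Female_VEH and 0.682, 4.0, 5.17, 0.837 and 3.62 in Female_CORT, with no overlap between vehicle and treated mice of either sex. It fell in both sexes, with an interaction of -2.0 (SE 0.59, adjusted p = 0.0332). Ciita, the master regulator of class II, was at 0 to 0.111 CPM in treated males and 0.0455, 0.289, 0.202, 0.0492 and 0.0397 in treated females, all but F4 and F6 under 3 counts per library, so that the size of its difference is not given. Of 7 class II genes tested 5 had a lower response in males at 0.05 (71.4%, beside 7.46% of all genes). The number was 0 with the adipocyte score and 0 without F2, F6 and F10. H2-D1, a heavy chain of class I, was higher in the treated females other than F8, and not in treated males. It was 106 to 199 CPM in Female_VEH, 446, 229.5, 622, 76.7 and 485 in Female_CORT, 118 to 149 in Male_VEH and 69.9 to 138 in Male_CORT (-1.87, adjusted p = 0.0178). The interaction of H2-D1 was -1.01 with the adipocyte score (adjusted p = 0.0718) and -0.56 without F2, F6 and F10 (adjusted p = 0.486). Class I genes are near-identical copies in part, which makes the split of reads among them uncertain. Tap1 and Tapbp, which load peptide onto class I, had -2.0 and -1.21 (adjusted p = 0.0167 and 0.0123). Without F2, F6 and F10 they had -1.46 and -0.42 (adjusted p = 0.197 and 0.276). Of 21 class I and immunoproteasome genes 14 had a lower response in males (66.7%, beside 7.46% of all genes) and 0 a higher one. Their median log2FC was -0.48 in males and 0.28 in females. The number called lower was 1 with the adipocyte score in the model and 0 without F2, F6 and F10.

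Dhx58 codes for the RNA sensor LGP2 of the interferon response. Female_CORT at 3.5, 4.91, 3.92, 2.71 and 5.33 CPM lay above all of Female_VEH at 1.71 to 2.40, and Male_CORT at 1.05 to 1.88 overlapped with Male_VEH at 1.55 to 2.49. Its interaction of -1.44 (SE 0.25, adjusted p = 0.00607) was -1.34 with the adipocyte score (adjusted p = 0.0240) and -1.32 without the 3 females (adjusted p = 0.0551). Ddx58, the related sensor RIG-I, had -1.04 (adjusted p = 0.0202). Of 43 interferon response genes 12 had a lower response in males (27.9%, beside 7.46% of all genes) and 0 a higher one. The log2FC of the interaction was below 0 in 42. The median of -1.05 stayed at -0.97 with the adipocyte score and -1.10 without these 3 females, while the number called was 1 with the adipocyte score in the model and 0 without F2, F6 and F10.

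The promoter of Gbp2, an interferon-induced GTPase, is shown for its interferon-stimulated response element, the match to GAAANNGAAA in capitals, which here lies on the opposite strand and begins at position -59 from the start.
Gbp2 (chr3:142620413-142620662, plus strand): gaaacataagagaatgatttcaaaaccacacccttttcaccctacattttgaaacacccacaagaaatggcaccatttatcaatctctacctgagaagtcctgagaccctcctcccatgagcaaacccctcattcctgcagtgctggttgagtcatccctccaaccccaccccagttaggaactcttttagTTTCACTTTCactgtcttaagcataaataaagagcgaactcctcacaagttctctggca
Gbp2 was 9.05 to 29.5 CPM in Male_VEH, 4.92 to 8.08 in Male_CORT, 9.91 to 15.1 in Female_VEH and 16.8, 21.1, 20.2, 8.02 and 22.5 in Female_CORT, with treated males wholly below their controls (-1.59, adjusted p = 0.0167). This motif was found in 20 of 31 interferon response genes with a promoter in the table, in 5 of 19 class I genes and in 3.53% of 9560 tested autosomal genes.

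Of 37 macrophage and complement markers 11 had a lower response in males (29.7%, beside 7.46% of all genes) and 0 a higher one. Their median log2FC was -0.43 in males and 0.72 in females. Cd68, a lysosomal protein of macrophages, was 2.54 to 4.30 CPM in treated males and 7.50, 9.49, 11, 3.44 and 12.5 in treated females (-1.54, adjusted p = 0.0312). None of these genes passed with the adipocyte score or without F2, F6 and F10, where 234 and 62 of the 12613 autosomal genes passed. The median of -1.14 became -0.50 with the adipocyte score and -0.56 without these 3 females. Cbr2, a carbonyl reductase, and Naaa, an enzyme that breaks down lipid amides in macrophages and other cells, passed at 0.01. Cbr2 was 36.2 to 64.7 CPM in Male_VEH and 9.86 to 20.8 in Male_CORT, and 24.8, 24.5, 35.4, 12.3 and 31.4 CPM in treated females beside 12.2 to 24.4 (-2.30, SE 0.34, adjusted p = 0.00385). Naaa had -1.54 (adjusted p = 0.00975), with F2, F6 and F10 highest at 16.1, 24.4 and 20.2 CPM.

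Annexins and S100 proteins, calcium-binding proteins at membranes, had 6 of 17 members with a lower response in males at 0.05 and 0 with a higher one. That is 35.3%, beside 7.46% of all genes called lower. The number was 1 with the adipocyte score in the model and 0 without F2, F6 and F10. Anxa2 was 43.9 to 80.8 CPM in Male_VEH and 24.6 to 37.9 in Male_CORT, with no overlap, and 86.9, 65.7, 149, 45.1 and 120.1 CPM in treated females beside 29.5 to 70.4 in controls (-1.61, adjusted p = 0.0110). S100a11 had -1.87 (adjusted p = 0.0150). With the adipocyte score Anxa2 and S100a11 had -1.11 and -1.05 (adjusted p = 0.0562 and 0.0496). Without F2, F6 and F10 they had -0.83 and -0.63 (adjusted p = 0.193 and 0.368). Hsp90aa1, the inducible HSP90 that holds the glucocorticoid receptor ready for its ligand, was 46.8 to 79.2 CPM in Female_VEH and 171, 53.7, 139, 199 and 202 in Female_CORT, and 52.1 to 85.1 and 52.1 to 100.5 CPM in males. Its interaction was -1.34 (adjusted p = 0.0199), and F4 alone among treated females lay in the control range. Pdia4, a disulfide isomerase of the endoplasmic reticulum, had -1.10 (adjusted p = 0.0167). Of 41 heat shock and unfolded protein response genes 8 had a lower response in males and 0 a higher one. That is 19.5%, beside 7.46% of all genes called lower. The number was 0 with the adipocyte score in the model and 0 without F2, F6 and F10.

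Hmgcs1 makes HMG-CoA for cholesterol synthesis, and its promoter is shown for a sterol response element, the match to TCACNCCAC in capitals that begins at position -137 from the start.
Hmgcs1 (chr13:119690101-119690350, plus strand): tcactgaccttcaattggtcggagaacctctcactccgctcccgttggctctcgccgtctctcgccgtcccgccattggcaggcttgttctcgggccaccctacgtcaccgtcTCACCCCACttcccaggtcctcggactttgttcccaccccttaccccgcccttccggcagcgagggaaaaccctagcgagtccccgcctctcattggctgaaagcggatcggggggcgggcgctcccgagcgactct
Hmgcs1 was 31.3 to 38.3 CPM in Female_VEH and 74.2, 42.3, 90.6, 32.4 and 84.7 in Female_CORT, and 33.4 to 42.2 in Male_VEH and 27.7 to 39.5 in Male_CORT. F2, F6 and F10 were apart from all other mice, and F8 was not apart from the controls. The interaction was -1.09 (adjusted p = 0.0167), and -0.27 without these 3 females (adjusted p = 0.419). Pmvk, of the mevalonate pathway, had -1.50 and -0.30 in the same order (adjusted p = 0.0169 and 0.542). Of 27 cholesterol genes 33.3% were called, beside 12.7% of all genes. In males 8 had a lower response and 1 a higher one, the latter being the sterol-sensing receptor Nr1h2. The number of lower ones was 1 with the adipocyte score in the model and 0 without F2, F6 and F10, and the median of the list of -0.77 became -0.43 with the adipocyte score and 0.051 without these 3 females. The sterol motif was in 1 of 20 of these promoters and in 1.43% of all.

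Dhdds, which makes dolichol for protein glycosylation, had no overlap between vehicle and treated mice in either sex, higher in treated females and lower in treated males. It was 13.3, 14.4 and 16.0 CPM in Female_VEH, 17.6, 17.1, 20, 16.6 and 18.2 in Female_CORT, 12.1, 13.6 and 15.3 in Male_VEH and 7.90, 9.92 and 11.6 in Male_CORT. The interaction of -0.78 (SE 0.13, adjusted p = 0.00607) was -0.72 with the adipocyte score (adjusted p = 0.0223) and -0.66 without F2, F6 and F10 (adjusted p = 0.0644). Among genes of fatty acid synthesis, Scd2, a desaturase, was 263, 23.9, 264, 25.3 and 208 CPM in treated females and 13.0 to 53.6 in treated males (-3.25, adjusted p = 0.0114), and -0.55 without F2, F6 and F10 (adjusted p = 0.595). Of 23 genes of this list 2 were called, both lower, 8.7% beside 7.46% of all genes called lower and 12.7% called either way. The median interaction of -1.38 became -0.064 with the adipocyte score and 0.23 without these 3 females. Lep, the adipocyte hormone leptin, gave 264, 55.3, 660.1, 3.20 and 241 CPM in treated females and 12.8 to 73.5 in treated males (-5.42, SE 1.37, adjusted p = 0.0202). Of 22 adipocyte markers 3 were called, all lower, 13.6% beside 7.46% of all genes called lower and 12.7% called either way. Their median of -1.94 became 0.28 with the adipocyte score and -0.04 without these 3 females. The score is the mean of these same markers, and these 3 females had the highest scores, so that both changes are in part built in. Hsd11b1, the enzyme that regenerates active glucocorticoid and is abundant in fat, was 155, 16.5, 269.8, 9.25 and 143 CPM in treated females and 16.3 to 70.0 in treated males (-2.73, adjusted p = 0.0304). Without the 3 females its direction turned, to 0.50 (adjusted p = 0.668).

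Fatty acid uptake and oxidation genes had 6 of 47 members with a lower response in males at 0.05 and 0 with a higher one. This share of 12.8% stands beside 7.46% of all genes called lower and 12.7% called either way. The number was 1 with the adipocyte score in the model and 0 without F2, F6 and F10. Slc27a4, a fatty acid transport protein, was the one that passed at 0.01, at 17.1, 14.7, 20.9, 16.4 and 20.8 CPM in treated and 11.1 to 16.3 in control females and 9.63 to 12.1 and 12.1 to 14.7 in males (-0.75, adjusted p = 0.00806). Cd36, the fatty acid translocase, was 242 to 458 CPM in Female_VEH and 860.0, 648, 1304, 583 and 1069 in Female_CORT, with no overlap, and overlapped in males (-0.97, adjusted p = 0.0408). A pair of extracellular proteins followed: Inhbb, an activin subunit, was 0.882 to 2.66 CPM in Female_VEH and 6.41, 8.72, 13.0, 3.20 and 10.5 in Female_CORT, again with no overlap (-2.05, adjusted p = 0.0202), and Sod3, the extracellular superoxide dismutase, had -2.17 (adjusted p = 0.0140).

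At 0.01, 3 genes passed in both sexes with opposite signs. Atmin, a cofactor of the ATM kinase, was 35.2, 40.1 and 48.2 CPM in Female_VEH and 32.4, 34.6, 28.8, 32.7 and 26.3 in Female_CORT, wholly lower, and 35.3, 39.5 and 43.0 in Male_VEH and 39.5, 52.1 and 55.9 in Male_CORT. It fell by 0.41 in females and rose by 0.37 in males on the log2 scale (interaction 0.79, SE 0.13, adjusted p = 0.00607). The adjusted p was 0.0223 with the adipocyte score and 0.0485 without F2, F6 and F10. Cyb5b, the cytochrome b5 of the outer mitochondrial membrane, rose by 0.60 in females and fell by 0.53 in males (-1.13, adjusted p = 0.00607), at 136, 79.4, 161, 89.1 and 148 CPM in treated females, where F2, F6 and F10 were highest. Slc27a4, given above, is the third. With the adipocyte score Cyb5b and Slc27a4 had -0.87 and -0.62 (adjusted p = 0.0245 and 0.0300). Without F2, F6 and F10 they had -0.56 and -0.51 (adjusted p = 0.0828 and 0.124). Zfp622, a zinc finger protein of ribosome assembly, and Setd3, the actin histidine methyltransferase, had log2FC above 0 in males and below 0 in females as Atmin did, with interactions of 0.63 and 0.54 (adjusted p = 0.00952 and 0.0114), although their responses did not pass 0.01 in both sexes.

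Some of the genes also differed between the sexes in the vehicle groups, where a batch and the sex cannot be told apart. Between vehicle-treated males and females, 0.856% of the autosomal genes differed at 0.01 and 2.46% had ranges that did not overlap. Between treated males and females 23.4% differed at 0.01. Of the 90 genes with an interaction at 0.01, 8 differed between the vehicle groups and 81 between the corticosterone groups. All 5 of those with a higher response in males were lower in vehicle-treated males, and all 3 with a lower response were higher there. The vehicle mice enter both comparisons, so that this direction is in part built in. The 5 were Stc2, Sesn1, Gadd45a, Arid5a and Foxo3, with log2FC of -1.78, -0.93, -1.18, -0.87 and -0.58 of vehicle-treated males against females. With corticosterone, the median of the males lay above that of the females in all 5.

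Among the genes with a lower response, the noncoding gene 8430426J06Rik and Cbr2 were higher in vehicle-treated males, with log2FC of 4.28 and 1.34. The former was 0.0489 to 0.729 CPM in Female_VEH and 2.0, 0.241, 2.46, 3.10 and 2.50 in Female_CORT, F4 remaining low, beside 3.23 to 6.02 and 3.48 to 5.87 in males (-3.21, adjusted p = 0.00781). Its lowest value in Female_VEH was under the 3 counts taken as a floor and its median there was 0.169 CPM, so that the size of this difference is uncertain. Among the genes called at 0.05, Amd1 (chr10:40287458-40302186) codes for the S-adenosylmethionine decarboxylase of polyamine synthesis. It was 858, 1215 and 1634 CPM in Male_VEH and 136, 173 and 221 in Female_VEH, a log2FC of 2.80, and 179.9, 259 and 555 in Male_CORT and 121, 132, 106, 136 and 78.8 in Female_CORT. Treated males lay wholly below their controls, still above all treated females. In females the ranges nearly touched and the log2FC of -0.62 did not pass. The interaction was -1.45 (adjusted p = 0.0167). Slc30a2, a zinc transporter, stood at 18.5 to 35.0 CPM in Male_VEH and 0.216 to 1.37 in Female_VEH, and at 15.4 to 55.5 in Male_CORT and 2.68, 10.4, 2.75, 4.23 and 2.03 in Female_CORT, wholly above their controls (-2.59, adjusted p = 0.0174). Grb10, an inhibitor of the insulin and IGF receptors, was lower in vehicle-treated males (-0.93) and fell in females alone (-0.57, against 0.036 in males), an interaction of 0.60 (adjusted p = 0.0261).

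Across all 43 gene lists, 16 had members with a lower response in males at 0.05 and none with a higher one, 11 the reverse, 11 both and 5 no call. Energy and ribosome genes were seldom called. None of 79 respiratory chain subunits was called, with 70 interactions below 0 and a median of -0.26. At an unadjusted p under 0.05 they were 4, and DESeq2 and limma-voom called 3 and 2, all lower. Of 76 mitochondrial ribosomal proteins 1 was called lower, and of 73 cytosolic ribosomal proteins 2 higher, where 70 interactions were above 0. Among 40 proteasome subunits, the protease that degrades ubiquitinated proteins, 3 had a higher response, such as Psmd4, its ubiquitin receptor (0.62, adjusted p = 0.0192). The 4 with a lower one included Psme1, an interferon-induced activator (-0.49, adjusted p = 0.0226). In either direction 17.5% of the proteasome list were called, beside 12.7% of all genes. Of 37 endothelial genes 4 had a lower response and 0 a higher one, 10.8% beside 7.46% of all genes called lower. Counts of the lists moved with single mice. Over the 23 fits that leave out 1 mouse, collagen genes with a lower response numbered 11 to 20, interferon genes 3 to 32, macrophage and complement genes 1 to 24, class I genes 6 to 18 and class II genes 0 to 6, with a median interaction below 0 in all 23. GR targets with a higher response numbered 5 to 8 and calcium handling genes 4 to 11, with a median above 0 in all 23. Antioxidant and metal genes split, with 2 higher and 5 lower of 46 (15.2%, beside 12.7% of all genes). Among the lower ones was Slc39a1, a zinc importer (-0.60, adjusted p = 0.00607).

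**Figure D5:**
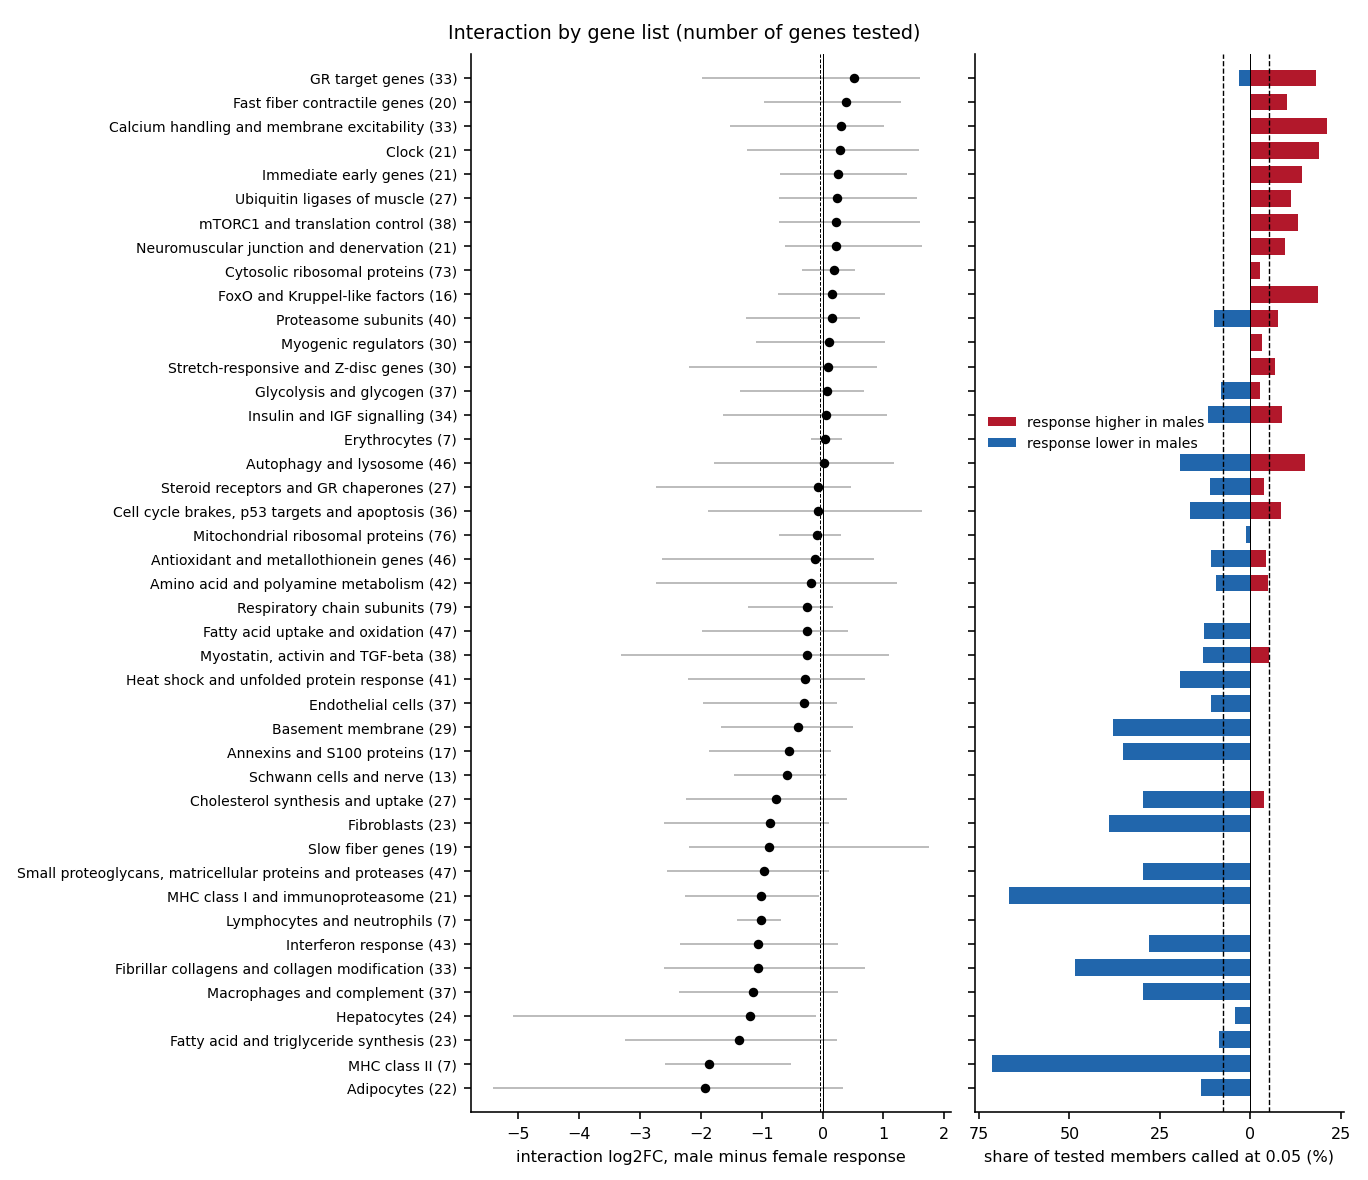
Median (point) and range (line) of the interaction log2FC of each gene list (left, dashed line at the median of all autosomal genes, -0.05) and share of tested members called at an adjusted p under 0.05 (right, red for a higher and blue for a lower response in males, dashed lines at 5.22% and 7.46% over all genes). The lists of collagen, MHC, interferon and macrophage genes lie left of the line and GR targets and calcium handling genes right of it.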

How the data were processed

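Quadriceps mRNA of 23 mice was sequenced as stranded 100 bp pairs. Per the methods and labels, the authors checked reads with FastQC and MultiQC, aligned them to mm10 with STAR (2.7.3a) and counted read pairs per Ensembl gene with HTSeq (0.12.4). The deposited table holds these raw counts, not normalized. Its 5 HTSeq summary entries, 10.7% to 15.3% of read pairs, were dropped, which left 20904150 to 21984477 counts per mouse. Genes were placed with GENCODE M21 (93 IDs unmatched).

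The counts were analysed with edgeR (4.0.16, R 4.3.3): TMM scaling, a filter that kept genes above 20 normalized counts in 4 or more mice of any group, 1 mean per group, glmQLFit and glmQLFTest of the interaction, and Benjamini-Hochberg adjustment over 13049 genes. CPM are counts scaled to the TMM-adjusted library size, not per length, so that levels are compared within a gene only. Log2 CPM in scores use a prior count of 1, and 3 counts, the floor, are 0.119 to 0.166 CPM. Groups came from the labels. Each library is a separate mouse by its number, and p-values measure the spread between these mice. Alternatives were DESeq2 (1.42.0), limma-voom (3.58.1), other filters and scalings, a replicate block, marker scores as covariates and mice left out. The fits were tested on simulated data. Promoters are from RefSeq (GRCm38.p6), found for 9560 of the tested autosomal genes, and both strands were searched. Genes were named from a rule that took the 12 largest interactions per side at 0.01, up to 4 called genes per list by p, and a fixed set of glucocorticoid, fiber, collagen, MHC and other genes. It gives 159 genes, of which 95 are in the text, a selection made with their values known, and the others are not reported here. The members and the 43 gene lists were chosen with earlier results of these data known.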

Additional observations from a re-analysis of the deposited data

Results flagged for a closer look

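A difference between the responses of the sexes, tested by the interaction term itself at an adjusted p under 0.01 (edgeR), marks 38 of the 95 genes given above. A higher response in males was found, by the interaction log2FC, for Stc2 (2.60), Arhgap26 (2.20), Pnmt (1.90), Gadd45a (1.64), Sesn1 (1.61), Arid5a (1.45), Pm20d2 (1.40), Nr4a1 (1.39), Myo18b (1.3), Tfeb (1.17), Sptb (1.14), Cdh15 (1.11), Tbc1d4 (1.06), Foxo3 (1.02), Fbxo31 (0.99), Atmin (0.79), Zfp622 (0.63) and Smad4 (0.59). A lower one was found for Bmp3 (-3.65), 8430426J06Rik (-3.21), Col3a1 (-2.61), Cbr2 (-2.30), Sertad4 (-2.26), Pcsk5 (-1.92), Serpinh1 (-1.78), Cd59b (-1.57), Naaa (-1.54), Snhg14 (-1.51), Dhx58 (-1.44), Fndc10 (-1.42), Col6a1 (-1.32), Crtap (-1.30), Ctsz (-1.26), Gsta4 (-1.15), Cyb5b (-1.13), Dhdds (-0.78), Slc27a4 (-0.75) and Slc39a1 (-0.60). No explanation was weighed for these genes.

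Single mice stood apart from the rest of their group, by Dixon's test at the 95% level, in 23 of 380 sets of gene and group. Chance gives about 1 in 20 sets. In females these were 8430426J06Rik in F3 at 0.729 CPM (highest of Female_VEH), Arhgap26 in F1 at 21.7 CPM (highest of Female_VEH), Col3a1 in F3 at 714 CPM (highest of Female_VEH), Cry2 in F11 at 45.0 CPM (highest of Female_VEH), Myh7 in F2 at 837 CPM (highest of Female_CORT), Pmvk in F5 at 13.9 CPM (highest of Female_VEH), Psmd4 in F10 at 115 CPM (lowest of Female_CORT), Rora in F9 at 134 CPM (highest of Female_VEH), Setd3 in F10 at 88.9 CPM (lowest of Female_CORT), Slc30a2 in F4 at 10.4 CPM (highest of Female_CORT), Tbc1d4 in F2 at 105 CPM (highest of Female_CORT) and Tsc2 in F10 at 69.9 CPM (lowest of Female_CORT). In males they were Adamts5 in M2 at 23.8 CPM (highest of Male_CORT), Amd1 in M2 at 555 CPM (highest of Male_CORT), Angptl4 in M3 at 36.0 CPM (highest of Male_VEH), Anxa2 in M4 at 24.6 CPM (lowest of Male_CORT), Atmin in M12 at 39.5 CPM (lowest of Male_CORT), Gbp2 in M11 at 29.5 CPM (highest of Male_VEH), Lep in M3 at 71.6 CPM (highest of Male_VEH), Pdia4 in M11 at 21.5 CPM (highest of Male_VEH), Rora in M8 at 202 CPM (highest of Male_CORT), S100a11 in M3 at 37.0 CPM (highest of Male_VEH) and Stc2 in M10 at 26.1 CPM (highest of Male_CORT). They fall on 15 mice, no more than 3 on any of them. F10 was lowest among treated females for Psmd4, Setd3 and Tsc2, all with a higher response in males. M3 was highest of Male_VEH for Angptl4, Lep and S100a11, all with a lower response in males. The reasons were not tested.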

How the results depend on the processing

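At an adjusted p under 0.01 there were 90 autosomal genes with a different response by sex, 48 autosomal genes with a higher response in males and 42 autosomal genes with a lower response in males. In the same order the counts were 1600, 659 and 941 at 0.05, 40, 16 and 24 with an interaction over 1 in size, 874, 415 and 459 by DESeq2, 668, 183 and 485 by limma-voom with sample quality weights, and 10, 8 and 2 with no filter on low counts, where more genes are tested. They were 1, 1 and 0 with the adipocyte score as a covariate, 4, 3 and 1 without M8 and F10, and 6, 4 and 2 without F2, F6 and F10, an alternative chosen after seeing the data. Median-of-ratios scaling called 78 higher and 128 in all. Without 1 mouse the counts ranged from 1 to 862, 1 to 231 higher and 0 to 631 lower. Those beyond 1.5 times were 1 without M3, 4 without F10, 5 without M4, 6 without F1 or M11, 8 without M7 or M10, 9 without F9, 10 without M6, 13 without M8, 14 without F6, 20 without M9, 26 without F11, 35 without M1, 38 without F7, 40 without M5, 49 without F2, 298 without F3, 390 without F4 and 862 without F8. The causes were not tested. All 90 genes kept their direction in all 35 alternatives, and 89 or 90 stayed under 0.05 in the 34 planned ones. In the other, without F2, F6 and F10, 27 stayed under 0.05 and 5 under 0.01. With the replicate number as a block, 95 genes passed 0.01, 41 of the 90 among them, and 1559 passed 0.05. At 0.05 the class I genes called lower went from 14 to 6, interferon genes from 12 to 6, macrophage and complement genes from 11 to 4 and class II genes from 5 to 2, and calcium handling genes called higher from 7 to 11. The numbers are not stated to pair the mice: over 11 pairs the correlation of deviations ran from -0.38 to 0.48, and 4 were highest with their own number. Directions turned for results that were not called or rest on few females: Fkbp5 to -0.0093 by limma-voom, Mt1 to 0.44 with the adipocyte score and 0.31 without F2, F6 and F10, and, also without these, Hsd11b1 to 0.50 and Myh7 to 0.53. Without 1 mouse, Mt1 ranged from -0.41 to 0.095, Mt2 from -0.082 to 0.42 and Myh7 from -1.93 to 0.53. Of 1505 values each for the lists, 509 counts and 40 medians moved. With 5 or 6 mice a group, simulated 2-fold interactions were recovered in 50% of genes and 4-fold ones in 88.6%, so that smaller differences can be missed. The simulation planted changes in treated males alone, among genes of higher counts. It gave the groups a common mean and no variation shared by the genes of a mouse, so that recovery in these data can differ.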

Other observations

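Among gene groups not yet described, cell cycle brakes, p53 targets and apoptosis genes split, with 3 higher and 6 lower in males of 36 at an adjusted p under 0.05. Myostatin, activin and TGF-beta genes had 2 higher and 5 lower of 38, insulin and IGF genes 3 and 4 of 34, amino acid and polyamine genes 2 and 4 of 42, and genes of glycolysis and glycogen 1 and 3 of 37. Genes of the neuromuscular junction had 2 higher and 0 lower of 21, stretch-responsive and Z-disc genes 2 and 0 of 30, and myogenic regulators 1 and 0 of 30. Over all autosomal genes 12.7% were called, 5.22% higher and 7.46% lower.

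Liver transcripts varied among mice of each group, the summed level of 24 hepatocyte markers running from 303 to 4368 CPM in treated females and 96.1 to 3911 CPM in treated males. Of these markers 1 was called lower in males and 0 higher, and their part in other results was not tested beyond the fit with a hepatocyte score, which called 79 genes at 0.01. Outside the autosomes 48 of 436 tested genes had a different response at 0.05.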
